A study of Mus musculus with 2 samples.

Results

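The genes described here are 9 markers of resident tissue macrophages: Maf, Adgre1, Folr2, Ms4a7, Fcna, Lyz2, Aif1, Cbr2 and Mpeg1. They were taken by symbol from the expression tables of 2 libraries, and all 9 were present among 24319 rows. They comprise a MAF transcription factor and markers of macrophages in embryonic tissue. The libraries came from cells labelled as lymphatic endothelial cells (LECs, which line lymphatic vessels) of mouse skin at E15.5 (embryonic day), strain C57BL/6. The control library is labelled wild type and the other Dot1l knockout, described in the labels' protocols as endothelial (Dot1lΔEC) and called here the labelled-knockout library. Dot1l encodes the methyltransferase of lysine 79 of histone H3. The Cre line and the way the cells were purified were not stated in the sources used here, and a growth protocol for cultured dermal LECs stands in the labels of both samples. Each library was made from pooled RNA of 2 to 3 biological replicates, so there is 1 library per genotype, no difference below has a replicate check, and no test was possible.

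Many resident macrophages settle in tissues during embryonic life, from progenitors of the yolk sac and the fetal liver, and in some tissues they maintain themselves. In skin, resident macrophages lie in the dermis, often beside vessels, where they take up debris and dying cells. Their identity rests on lineage factors such as PU.1 together with MAF factors, and is read from surface receptors, secreted defence proteins and a few cytosolic proteins, which is the order followed below.

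Values are the deposited FPKM, that is, fragments counted for a gene relative to its transcript length in kilobases and to each 1000000 fragments mapped, a scale on which levels of different genes can be set side by side. Depth was estimated from the low values as about 10300000 fragments in the control library and about 9160000 in the labelled-knockout library, if no further scaling was applied. Fragment numbers given for a gene follow from those estimates and from the transcript length, so they are approximate. The 95% intervals, exact Poisson for a level and exact binomial for a ratio, cover counting error only. Dot1l itself was 5.86 FPKM in control and 10.4 in the labelled-knockout library. That value covers the whole gene, and the sources used here do not place the deletion, so it does not check the label. Markers of lymphatic endothelium were present in both libraries, with a summed level over 13 genes of 1618 FPKM in control and 1046 in the labelled-knockout library. Lyve1 (526 and 552.5) and Stab1 (68.6 and 231), which macrophages also express, made up the larger part of that sum in the labelled-knockout library, and Prox1, the factor that specifies the lineage, was 59.3 and 13.06.

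All 9 genes had higher values in the labelled-knockout library. Their summed level was 53.5 FPKM in control and 1502 in the labelled-knockout library, 28.1-fold higher. On the scale log2(FPKM + 1) the differences ran from 2.36 for Maf to 7.25 for Fcna, with a median of 5.67. The median over all 13296 genes at 1 FPKM or more in at least 1 library was 0.00. All 9 genes were higher by 2-fold or more on that scale, against 16.8% of all genes tested. Over all genes 2231 were higher and 2060 lower to that extent, and 1900 and 3330 when both sums of FPKM were scaled to 1000000. A difference of at least 8-fold was reached by 8 of the 9, against 3.81% of all genes, and one of at least 32-fold by 6 of the 9, against 1.05%. Of the 9 genes, 6 reached 1 FPKM only in the labelled-knockout library and so could differ in that direction only. The libraries are of bulk RNA, so more cells of a type and more RNA per cell cannot be told apart.

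**Figure D1:**
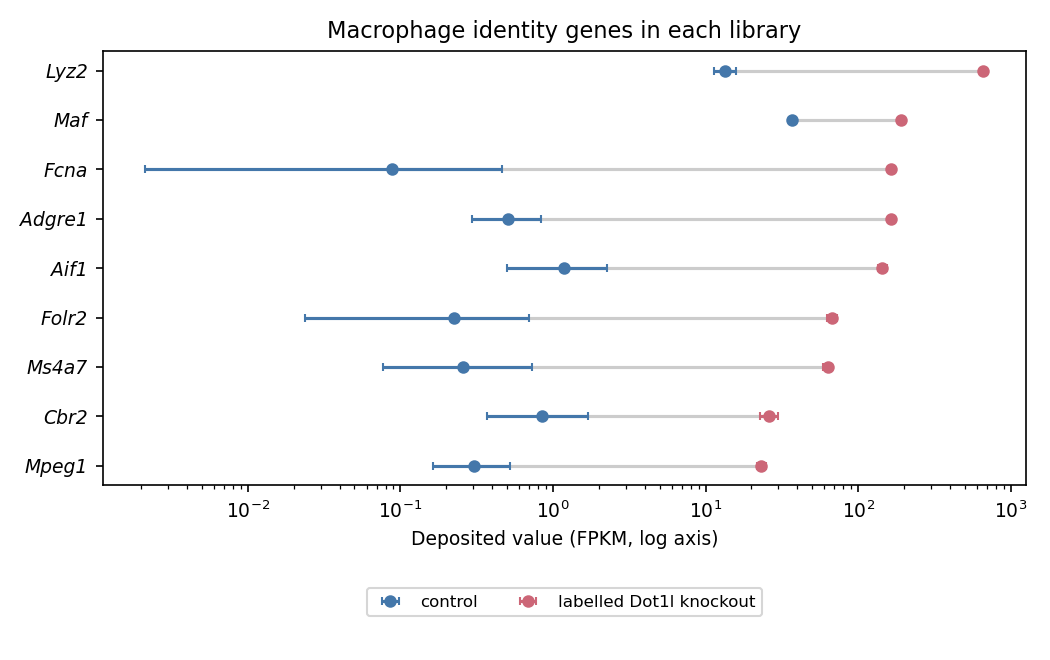
Deposited FPKM (log axis) of the 9 genes in the control library (blue) and the library labelled Dot1l knockout (red). Bars are 95% Poisson intervals over estimated fragments and cover counting error only. Maf and Lyz2 are the only genes at 10 FPKM or more in control, and in the labelled-knockout library the genes run from 23.2 FPKM (Mpeg1) to 657 (Lyz2).

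**Figure D2:**
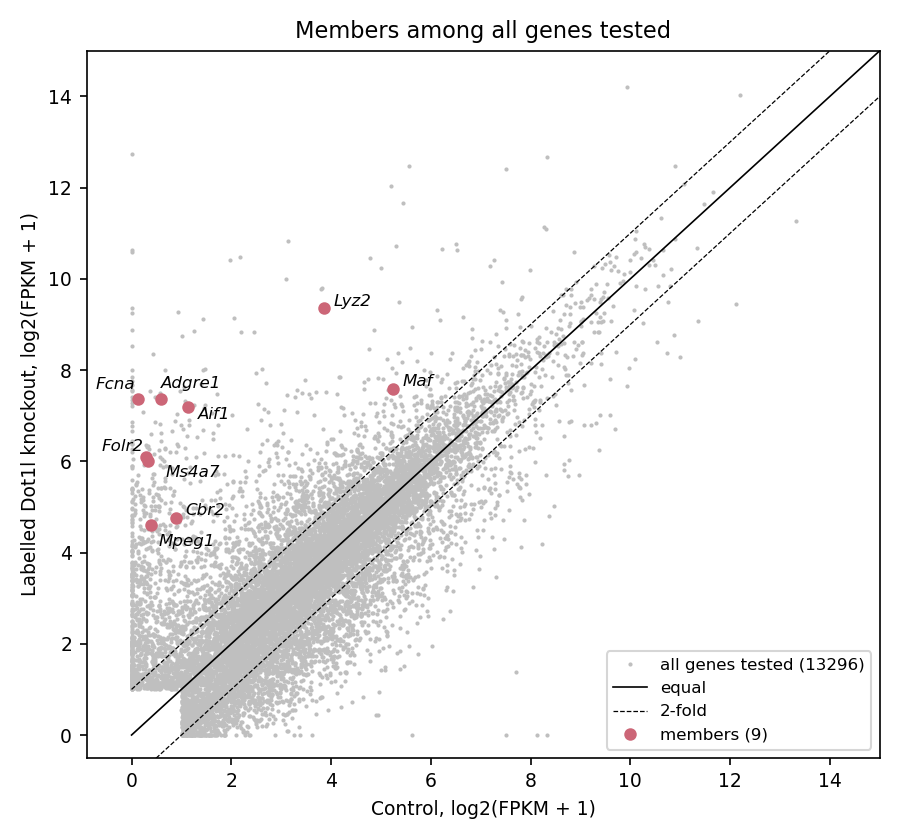
Level of each of 13296 genes in the control library (horizontal axis) and in the library labelled Dot1l knockout (vertical axis), both as log2(FPKM + 1), with the 9 genes in red. The solid line marks equal values and the dashed lines a 2-fold difference. All 9 lie above the upper dashed line, and 7 of them lie near the left edge, where control values are low.

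In the labelled-knockout library the order of levels was Lyz2, Maf, Fcna, Adgre1, Aif1, Folr2, Ms4a7, Cbr2 and Mpeg1. Counting intervals of neighbours in that order overlapped for 3 of 8 pairs: Fcna with Adgre1, Folr2 with Ms4a7, and Cbr2 with Mpeg1. In control the order was Maf, Lyz2, Aif1, Cbr2, Adgre1, Mpeg1, Ms4a7, Folr2 and Fcna. There the intervals of 6 of 8 neighbouring pairs overlapped, so below Lyz2 neighbouring genes could not be ordered at this depth, although the intervals of Aif1 and Fcna did not overlap. The make-up of the summed level differed as well. Maf and Lyz2 together made up 93.6% of it in control and 56.6% in the labelled-knockout library.

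RefSeq windows from 250 bases before to 50 after a start site (build GRCm38.p6) were available for 7 of the 9 genes, in 9 windows. They were searched on both strands for GAGGAA, a purine-rich core of PU.1 sites, for TGCTGA, one side of the MAF recognition element, for the AP-1 element TGANTCA and for the E-box CACGTG. No matches overlapped each other. GAGGAA was found in 4 of the 9 windows, and in 28.3% of all 32851 windows in the table. TGCTGA was found in 5 of 9 (19.5% of all), TGANTCA in 2 of 9 (7.81%) and CACGTG in none (7.15%). The windows of 4 genes are shown because they span the range, with all matches in capitals, each read 5′ to 3′ on the minus strand except that of Mpeg1, which is on the plus strand. Fcna, at chr2:25627925-25628224, had the most matches, with GAGGAA at -182, -169, -163 and 42 and TGCTGA at -107 and -90 from the start site. Cbr2, at chr11:120731972-120732271, was the single gene besides Fcna with both motifs. Lyz2, at chr10:117282223-117282522, had TGCTGA at -125, and Mpeg1, at chr19:12460520-12460819, had no match. These are matches of letters, and no binding was measured.
Fcna: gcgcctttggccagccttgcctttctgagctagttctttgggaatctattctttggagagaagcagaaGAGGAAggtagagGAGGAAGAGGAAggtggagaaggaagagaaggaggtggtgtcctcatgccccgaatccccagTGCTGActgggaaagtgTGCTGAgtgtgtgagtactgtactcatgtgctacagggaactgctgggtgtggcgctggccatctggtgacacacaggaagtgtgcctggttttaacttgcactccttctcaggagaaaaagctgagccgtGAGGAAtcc
Cbr2: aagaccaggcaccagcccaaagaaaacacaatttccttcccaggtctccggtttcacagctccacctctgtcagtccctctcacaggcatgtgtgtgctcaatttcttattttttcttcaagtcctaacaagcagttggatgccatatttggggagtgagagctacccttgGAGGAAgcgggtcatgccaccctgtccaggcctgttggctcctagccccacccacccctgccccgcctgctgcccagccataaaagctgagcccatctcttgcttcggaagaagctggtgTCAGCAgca
Lyz2: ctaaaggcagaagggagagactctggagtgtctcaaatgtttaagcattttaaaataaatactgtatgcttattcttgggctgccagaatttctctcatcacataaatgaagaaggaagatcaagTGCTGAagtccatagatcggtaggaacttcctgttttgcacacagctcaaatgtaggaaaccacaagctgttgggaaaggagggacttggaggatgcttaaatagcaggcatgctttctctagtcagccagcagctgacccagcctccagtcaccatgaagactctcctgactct
Mpeg1: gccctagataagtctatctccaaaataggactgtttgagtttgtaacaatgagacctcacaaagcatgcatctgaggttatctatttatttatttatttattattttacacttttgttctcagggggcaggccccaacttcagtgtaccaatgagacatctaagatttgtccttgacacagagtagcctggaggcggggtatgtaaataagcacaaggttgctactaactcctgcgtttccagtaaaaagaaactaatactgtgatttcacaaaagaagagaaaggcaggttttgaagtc

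Maf (mouse chromosome 8) encodes c-MAF, a basic leucine zipper factor that in macrophages helps to hold back proliferation. It was 36.6 FPKM in control, where about 2315 fragments support it, and 192 in the labelled-knockout library. The ratio of 5.25 (95% interval 5.01 to 5.49) was the smallest of the 9. Maf was the highest of the 9 in control and lay second to Lyz2 in the labelled-knockout library. The factor is not restricted to macrophages, and the level in control was 72.3 times that of Adgre1 in the same library.

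Among the small MAF proteins, which lack an activation domain, Maff was 37.2 FPKM in control and 77.2 in the labelled-knockout library, Mafk 14.5 and 36.9, and Mafg 13.9 and 27.1. All 3 had higher values in the labelled-knockout library, also under every scaling tried. Mafa, the factor of pancreatic beta cells, was listed at 0 and 0.120, and Nrl, that of rod photoreceptors, at 0 in both.

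Adgre1 (chromosome 17) encodes F4/80, an adhesion receptor widely used as a marker of mouse macrophages, though not restricted to them. It was 0.507 FPKM in control, about 16 fragments, and 163 in the labelled-knockout library, about 4542. The ratio was 322 (95% interval 195 to 556). The value was thus high in the labelled-knockout library and low in control, with no overlap of the counting intervals. Adgre5, the CD97 receptor that many cell types carry, was 33.9 and 33.3 FPKM, and Adgre4 was 0.146 and 0.460.

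Folr2 (chromosome 7) encodes folate receptor beta, a membrane-anchored receptor that marks perivascular and other resident macrophages. It was 0.225 FPKM in control, which rests on about 2 fragments, and 67.6 in the labelled-knockout library, about 621. The ratio of 301 had a 95% interval of 95.8 to 2877, so its size was poorly resolved. Folr1, the epithelial folate receptor, was listed at 0 and 0.576 FPKM. Enzymes and carriers of folate use differed less: Ggh was 27.8 and 31.6, and Slc19a1, the reduced folate carrier, 2.25 and 1.83.

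Ms4a7 (chromosome 19) encodes a membrane protein of the tetraspanning MS4A family. It was 0.259 FPKM in control, about 4 fragments, and 63.0 in the labelled-knockout library, about 795, a ratio of 244 (95% interval 86.6 to 819). The fragment numbers assume its longest RefSeq transcript of 1576 nt, and the shortest is 882 nt. Other MS4A genes of myeloid cells had like values: Ms4a6c was 1.09 and 144 FPKM, Ms4a6d 0.919 and 79.4, and Ms4a6b 0.327 and 48.9. Ms4a2, the beta chain of the mast cell IgE receptor, was 0.174 and 34.4. Ms4a1, which encodes the B cell antigen CD20, was listed at 0 in both libraries, as were Ms4a3, Ms4a5, Ms4a8a, Ms4a10, Ms4a13 and Ms4a15. The related genes Tmem176a (9.94 and 8.44) and Tmem176b (50.8 and 26.1) were not higher in the labelled-knockout library.

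Fcna (chromosome 2) encodes ficolin A, a secreted lectin that binds sugars on microbes and starts the lectin pathway of complement. It was 0.0877 FPKM in control, which corresponds to about 1 fragment, and 165 in the labelled-knockout library, about 1774. Its ratio of 1880.2 was the largest of the 9, with a 95% interval of 356 to 78486, so little beyond the lower bound can be read from it. RefSeq lists 2 non-coding RNA genes whose spans overlap that of Fcna and that have no values of their own here. The same holds for 2 pseudogenes at Adgre1 and 1 non-coding RNA gene at Folr2. Whether their exons overlap was not checked. No 50-base word of the Fcna, Adgre1 or Folr2 transcripts occurs in a GENCODE M21 transcript of another gene. Fcnb, the ficolin of monocytes and neutrophils, was listed at 0 in both libraries. The serum lectins Mbl1 and Mbl2 were at 0 as well. Masp2, a protease that ficolins activate, was lower in the labelled-knockout library (2.73 and 0.528 FPKM). Colec12, a scavenger receptor of endothelium and other cells, was 61.2 and 174.

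Lyz2 (chromosome 10) encodes lysozyme M, the bacterial cell wall enzyme of macrophages and neutrophils. It was 13.5 FPKM in control, about 154 fragments, and 657 in the labelled-knockout library, about 6723. The ratio was 48.8 (95% interval 41.7 to 57.7), and Lyz2 ranked 101 by level among the 13296 genes in that library. Its paralogue Lyz1, the lysozyme of Paneth cells, lies beside it and was listed at 0 in control and 0.599 in the labelled-knockout library. Of all 50-base words in the Lyz2 transcript, 15.4% also occur in Lyz1, so a small part of the reads could have been assigned to either gene. Of the other 5 lysozyme genes, Lyzl4 alone reached 1 FPKM in a library (0 and 1.72).

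Aif1 (chromosome 17) encodes IBA1, a calcium- and actin-binding protein used to stain macrophages and microglia. It was 1.18 FPKM in control, about 8 fragments, and 144 in the labelled-knockout library, about 894, a ratio of 122 (95% interval 63.2 to 291). Its relative Aif1l, which is expressed outside the blood lineage, had the opposite direction at 8.73 and 2.00 FPKM.

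Cbr2 (chromosome 11) encodes a carbonyl reductase that is high in lung and in resident macrophages of several tissues. It was 0.843 FPKM in control, about 8 fragments, and 26.2 in the labelled-knockout library, about 219. The ratio was 31.1 (95% interval 15.3 to 71.9), the second smallest of the 9. Dcxr, a related reductase that lies beside Cbr2, was 1.11 and 14.2 FPKM. Cbr1 was 17.8 and 45.6, Cbr3 1.53 and 2.96, and Cbr4 11.3 and 10.6. Of the 50-base words of Cbr2, 15.1% are shared with the predicted gene Gm11771.

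Mpeg1 (chromosome 19) encodes perforin-2, a pore-forming protein of phagosomes. It was 0.302 FPKM in control, about 13 fragments because its transcript is long, and 23.2 in the labelled-knockout library, about 879. The ratio was 76.8 (95% interval 44.0 to 143), and the level in the labelled-knockout library was the lowest of the 9. Among the perforin and terminal complement genes set beside it (Prf1, C6, C7, C8a, C8b, C8g and C9), none reached 1 FPKM. Prf1, the perforin of cytotoxic lymphocytes, was 0.209 FPKM in control and listed at 0 in the labelled-knockout library.

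**Figure D3:**
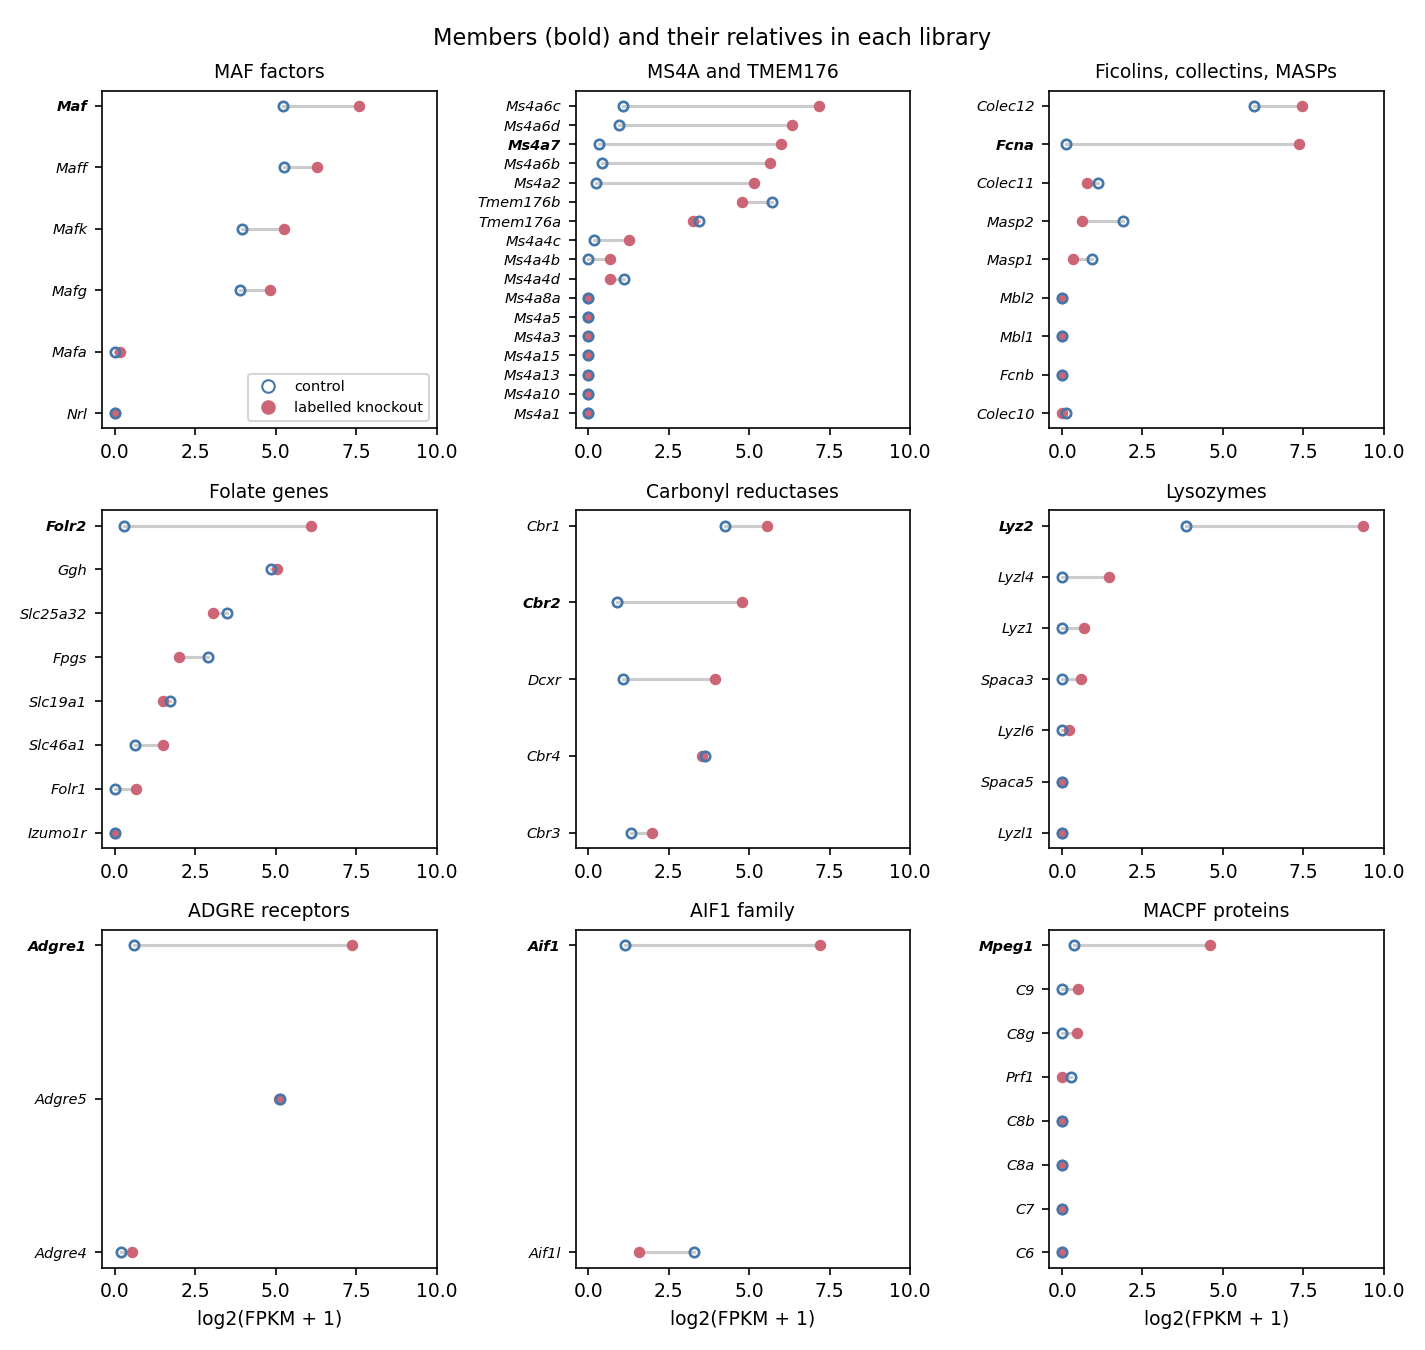
Level as log2(FPKM + 1) of each of the 9 genes (bold) and its relatives in the control library (open blue circles) and the library labelled Dot1l knockout (filled red circles). In the ficolin, folate, reductase, lysozyme, ADGRE, AIF1 and MACPF panels the member has the widest gap between libraries, while several MS4A genes and small MAF factors are also higher in the labelled-knockout library.

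The wider set of macrophage genes showed the same direction. Of 38 other macrophage genes, 35 were higher by 2-fold or more in the labelled-knockout library and none lower to that extent, with a median log2 difference of 4.15. Here too 18 of the 38 were below 1 FPKM in control. The highest values were in F13a1 (3.51 and 1434 FPKM), Pf4 (2.92 and 1361), Mrc1, the mannose receptor (31.1 and 1211), and the lysosomal protease Ctsd (68.5 and 641.5). The 3 genes within 2-fold on the log2(FPKM + 1) scale were Igf1 (53.1 and 37.5), Cebpa (8.25 and 8.23) and Vsig4 (0.476 and 1.21). Igf1 and Cebpa are also expressed by stromal cells and adipocytes. C1qc, Timd4 and Trem2 were listed at 0 in control. Timd4, a phosphatidylserine receptor of long-lived resident macrophages, reached only 2.67 FPKM in the labelled-knockout library, while C1qc was 203 and Trem2 12.96. Chosen after their values were seen, the lineage factors Spi1 (PU.1) and Irf8 were 0.173 and 29.8 FPKM, and 1.45 and 18.8.

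Relative to the median of those 38 genes, Fcna was higher by 3.10 on the log2 scale of the difference, Adgre1 by 2.62, Aif1 by 1.91 and Folr2 by 1.66. Mpeg1 was 0.07 from it, and Cbr2 (-0.27) and Maf (-1.79) lay below it. The 6 macrophage genes at 10 FPKM or more in control (Ctsb, Ctsd, Dab2, Gas6, Igf1 and Mrc1) had a median difference of 3.10, and the corresponding members, Maf and Lyz2, differed by 2.36 and 5.51.

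Markers of neighbouring myeloid cells separated in part. Of 9 monocyte genes at 1 FPKM or more, 7 were higher by 2-fold or more, with a median of 2.03 and a summed level over 12 genes of 53.7 FPKM in control and 225 in the labelled-knockout library. Nr4a1, which many cells induce on stimulation, made up most of both sums at 40.9 and 171. Ly6c2 and Fcnb, which mark classical monocytes, were listed at 0 in both libraries, and Ccr2 was 0.313 and 10.5. Among dendritic and Langerhans cell genes 6 of 8 were higher by 2-fold or more (median 2.34, summed level 20.4 and 204 FPKM over 14 genes). The leading ones were H2-Ab1 (1.09 and 77.2), Cd74 (0.480 and 59.9) and H2-Aa (0 and 41.6), class II genes that macrophages also express. Cd207, which encodes langerin of Langerhans cells, was listed at 0 in both, and Epcam, an epithelial gene too, was lower at 10.9 and 2.94.

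Markers of other cells differed between the same libraries, and their part in the values of the 9 genes was not tested. All 12 mast cell genes were higher by 2-fold or more in the labelled-knockout library (median 5.45). Their summed level was 125 FPKM in control and 13948 in the labelled-knockout library. In control 3 of the 12 were at 10 FPKM or more and 3 below 1 FPKM. Of the latter, Fcer1a was at 0 in control and 1.40 in the labelled-knockout library. Neutrophils also express Lyz2. Of 7 neutrophil genes at 1 FPKM or more, 6 were higher by 2-fold or more (median 3.56), and the summed level over 11 genes was 7.17 and 362 FPKM. Of these, S100a8 and S100a9 made up the larger part in the labelled-knockout library at 104 and 205, while the granule gene Elane was at 0 in both. Retnlg (30.6), the collagenase gene Mmp8 (10.8) and Csf3r, the receptor of granulocyte colony-stimulating factor (3.74), were listed at 0 in control. Of 4 lymphocyte genes at 1 FPKM or more, 3 were higher by 2-fold or more (Nkg7 at 0 and 5.28, Cd79b at 0.394 and 4.04, Il7r at 0.224 and 2.76) and Lck was lower (4.55 and 1.15). The sums over 12 lymphocyte genes were 5.97 and 15.3 FPKM, and Ncr1 was at 0 in both. Non-blood lists mostly went the other way, beside 2060 of 13296 genes overall that were lower by 2-fold or more. Among pan-endothelial genes 12 of 15 were lower to that extent (median -1.90, sums 1595 and 417 FPKM) as were 8 of 12 lymphatic endothelial genes (median -2.16). Another 3 lymphatic endothelial genes, Stab1, Itga9 (20.5 and 61.7) and Stab2 (2.36 and 9.30), were higher by 2-fold or more, and Lyve1 lay within 2-fold. Also lower by 2-fold or more were 11 of 12 fibroblast genes (median -1.94, sums 4334 and 1014). So were 10 of 10 pericyte and smooth muscle genes (median -2.56, sums 207 and 32.2) and 5 of 9 keratinocyte genes (median -1.07, sums 209 and 96.9). No marker of the endothelial, fibroblast, pericyte or keratinocyte lists was at 0 in control, and in the labelled-knockout library Ccl21a alone was.

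**Figure D4:**
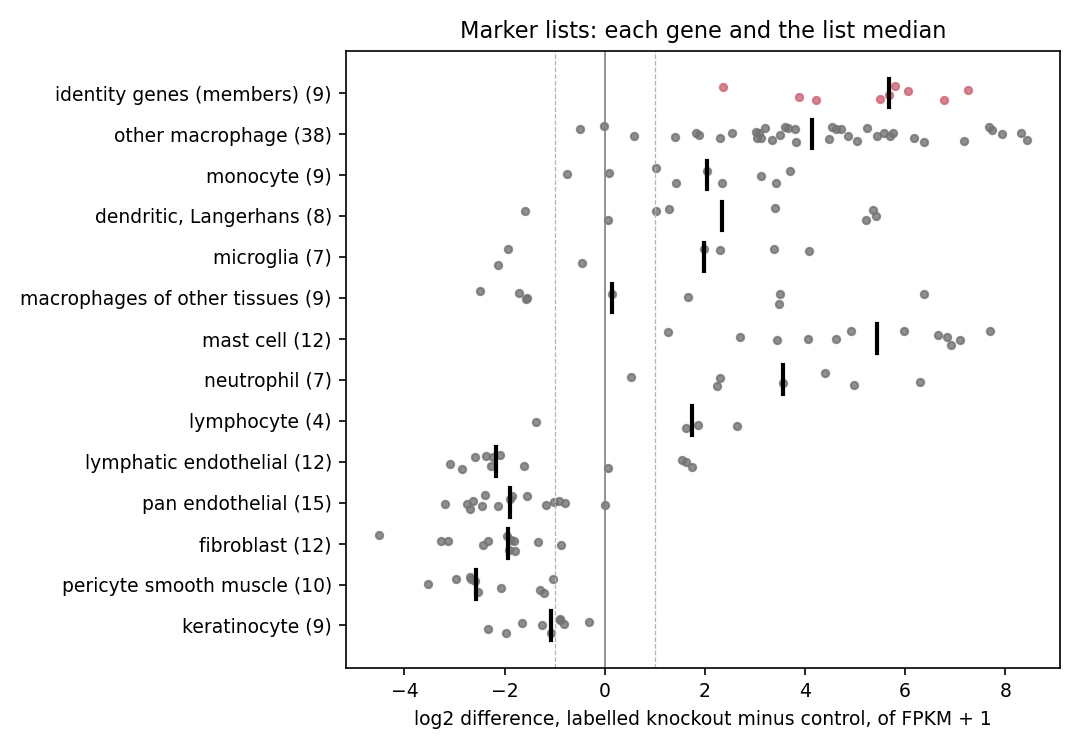
log2 difference of FPKM + 1 (library labelled Dot1l knockout minus control) for each gene at 1 FPKM or more in at least 1 library, by marker list. Black bars are list medians, the number of genes stands in brackets, and dashed lines mark 2-fold. The 9 members (red) lie between 2.36 and 7.25, within the range of the other macrophage and mast cell genes.

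For each of the 9, the genes with the most similar pair of values were found by distance in the plane of both log2(FPKM + 1) values, among genes at 10 FPKM or more in a library. Over only 2 libraries many genes lie close, so the likeness is a description. Aif1 lay nearest to Ms4a6c (distance 0.06) and Csf1r, the growth factor receptor of macrophages (0.09), followed by Fermt3, an integrin activator of blood cells (0.14). Adgre1 lay near Cyp11a1, a steroid-synthesis enzyme (0.14), the lectin receptor Clec4n (0.14) and the haemoglobin scavenger receptor Cd163 (0.29). Fcna lay nearest to the chemokine Ccl12 (0.13), then to Cd163 (0.31) and Il1b (0.31).

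Folr2 and Ms4a7 lay close to each other (0.11), and both lay close to the monoamine carrier gene Slc18a2 and to Lat2, an adaptor of mast cells and B cells. Maf was nearest to Fcgrt, the neonatal Fc receptor (0.10), Nr4a1 (0.23) and the lysosomal enzyme Hexa (0.25). Lyz2 was nearest to Srgn, a granule proteoglycan of blood cells (0.42), then to the haem-degrading enzyme Hmox1 (0.43) and Serpinb1a (0.99). Mpeg1 lay near Tespa1 (0.09), Bcl2a1b (0.09) and Tbxas1, thromboxane synthase (0.10). Cbr2 lay near Aldh1l1, a folate enzyme (0.12), Hapln1, a cartilage link protein (0.15), and Myo1f, a myosin of blood cells (0.17). The near genes therefore included genes known from macrophages and genes that mast cells also express, the latter for example near Folr2, Ms4a7 and Lyz2.

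The genes beside the 9 on their chromosomes, by RefSeq order, mostly lay below 1 FPKM or within 2-fold between the libraries. Of 36 neighbours, the 2 nearest listed genes on each side, 17 were below 1 FPKM in both libraries. Of the other 19, on the log2(FPKM + 1) scale, 5 were higher by 2-fold or more in the labelled-knockout library. The share over all genes tested was 16.8%. Another 14 neighbours lay within 2-fold and none was lower to that extent. The median over the 19 was 0.63, against 0.00 over all genes tested, so they leaned toward higher values in the labelled-knockout library. The 5 higher neighbours included Vav1, a signalling gene of blood cells beside Adgre1 (0.350 and 44.0 FPKM), and Lst1, a leukocyte gene beside Aif1 (3.51 and 45.6). The others were Tmem141 beside Fcna (2.198 and 34.5), Dcxr beside Cbr2 and Ms4a4c beside Ms4a7 (0.128 and 1.41). Around Maf, Folr2, Lyz2 and Mpeg1 no neighbour at 1 FPKM or more reached 2-fold on that scale. Wwox beside Maf was 2.46 and 4.93, Inppl1 beside Folr2 10.3 and 18.9, Yeats4 near Lyz2 34.6 and 40.0, and Fam111a near Mpeg1 68.4 and 135.

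**Figure D5:**
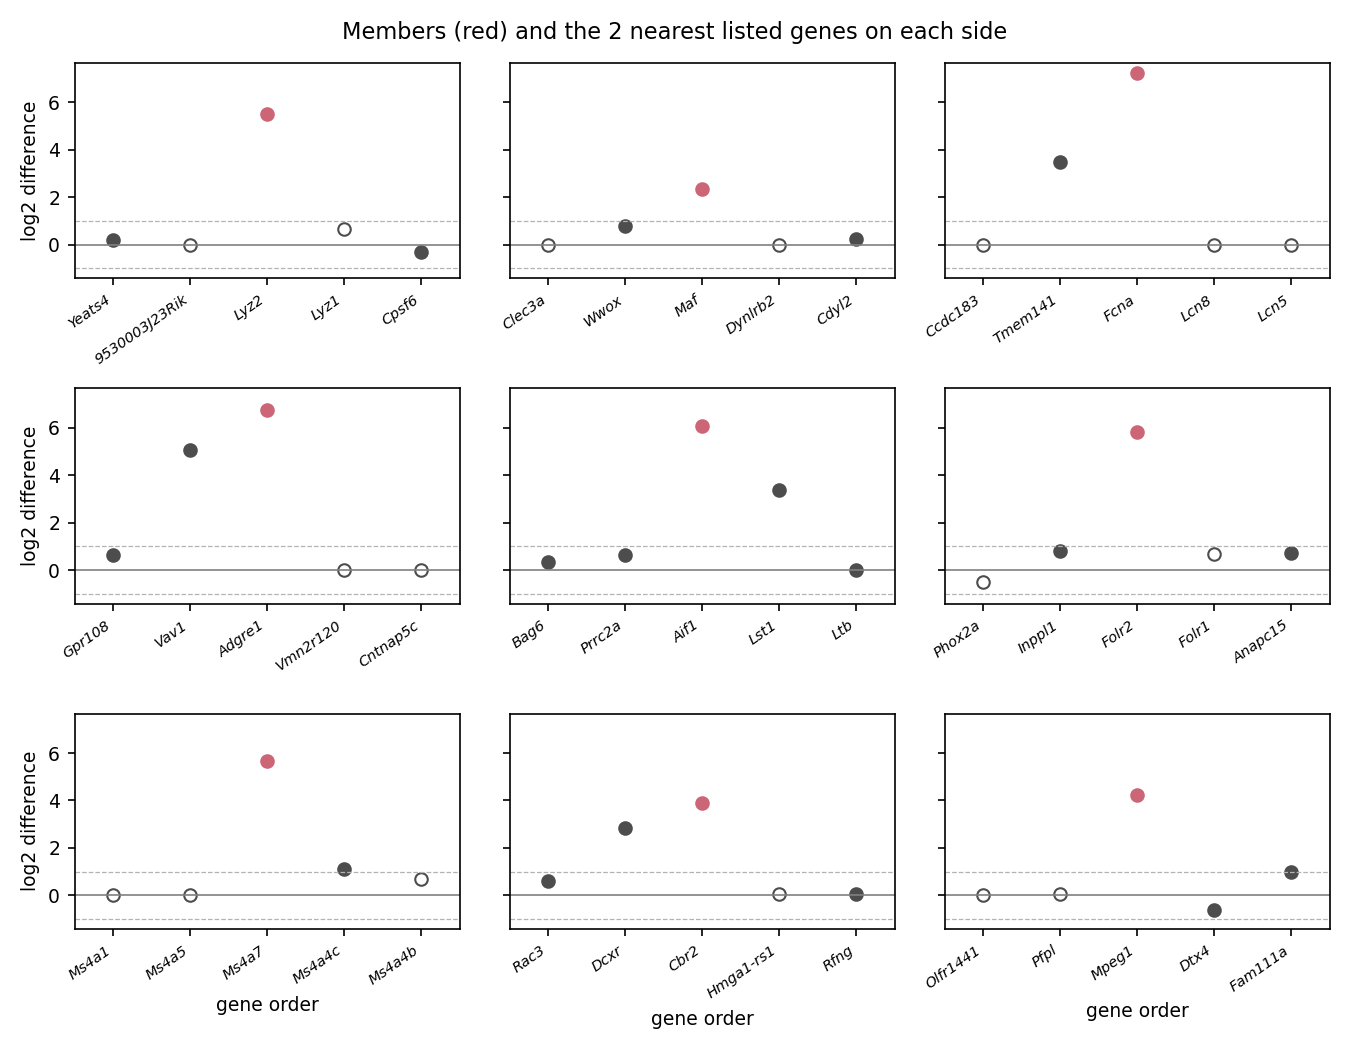
log2 difference of FPKM + 1 (library labelled Dot1l knockout minus control) for each of the 9 genes (red) and the 2 nearest listed genes on each side in RefSeq order (black; open where below 1 FPKM in both libraries). Dashed lines mark 2-fold. Each of the 9 is the highest point of its panel.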

How the data were processed

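The 2 libraries of pooled RNA, 1 per genotype, were analysed. The authors deposited 1 value per gene symbol and library, read here as FPKM. Cufflinks 2.2.1 and Cuffnorm appear in the submitters' processing notes, and the decimal values of a library do not add up to 1000000. STAR 2.5.2b and the build mm9 are named there too. The sources used here state neither the annotation nor any scaling between libraries. Per the labels' protocols, RNA had an integrity number above 7.0 and libraries were made with the ScriptSeq v2 kit.

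Differences were computed with Python 3.11.15 and pandas 2.3.3 as log2(FPKM + 1), which understates changes of low genes, over genes at 1 FPKM or more in at least 1 library. Ratios are of deposited FPKM. Depth was estimated from 159 control and 175 other low values of single-transcript genes of at least 2500 nt (GENCODE M21 lengths, fragments assumed 200 nt). At the chosen depth 82.4% and 76.0% of them lay within 0.1 of a whole fragment. Doubling a true depth also gives whole numbers, so where the doubled depth scored slightly better, as in the labelled-knockout library, the lower was taken. The recovery was partial and a count model was not used. The difference and depth code was tested on simulated data. The members and the marker lists were chosen with earlier results of these data known. Named genes are the members, their relatives, the 4 highest and the exceptions of other lists, nearest genes and neighbours, and others are said to be chosen after their values were seen, or are named because they were at 0 in a library. Proteins were not used here, and some list members are not reported here by name. Alternatives were other pseudocounts, scalings, minimum levels and thresholds.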

Additional observations from a re-analysis of the deposited data

How the results depend on the processing

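No paired analysis was possible because there is 1 library for each genotype, and no library could be left out. The 9 genes were higher by 2-fold or more under every pseudocount, scaling and minimum tried, and past the thresholds of 1.5-fold and 3-fold, with single-gene log2 differences from 2.03 to 9.78. Their median of 5.67 became 6.82 (pseudocount 0.1), 3.80 (pseudocount 5), 6.15 (sums scaled to 1000000) and 5.54 (same upper quartile). The median of the other macrophage genes, 4.15, became 5.58, 2.94, 4.74 and 4.02 in that order, and 4.53 with a minimum of 5 FPKM. Over all genes, 2231 were higher by 2-fold or more and 2060 lower. A pseudocount of 5 gave 1323 higher and 921 lower, a 1.5-fold threshold 3464 and 3450, and a 3-fold threshold 1298 and 906. Scaling both sums to 1000000 gave 1900 higher and 3330 lower genes, with -0.33 instead of 0.00 as the median difference over all genes. Some small lists changed as well. With pseudocounts of 0.1 and 5, a minimum of 5 FPKM and no minimum, in that order, the median of the dendritic and Langerhans cell genes (2.34) became 4.97, 0.95, 4.31 and 0.80, that of the monocyte genes (2.03) 3.51, 0.89, 3.13 and 1.22, and that of the neutrophil genes (3.56) 5.26, 1.66, 4.69 and 2.25. With a pseudocount of 5 the median of the pericyte and smooth muscle genes (-2.56) became -1.44. Of the monocyte genes 4 in place of 7 were higher with a pseudocount of 5 or a minimum of 5 FPKM. Of the keratinocyte genes 3 (pseudocount 5, 3-fold) or 8 (sums scaled, 1.5-fold) in place of 5 were lower, and of the genes of macrophages in other organs 2 in place of 4 with a pseudocount of 5, a minimum of 5 FPKM or a 3-fold threshold. The causes were not tested. Control values of Fcna, Folr2 and Ms4a7 rest on about 1, 2 and 4 fragments, which limits their ratios.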

Other observations

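Markers that macrophages carry in particular organs went both ways. Of 9 genes at 1 FPKM or more in a list from liver, spleen, lung and peritoneal macrophages, 4 were higher by 2-fold or more in the labelled-knockout library and 4 lower by as much, with a median log2 difference of 0.16. With a minimum of 5 FPKM 3 were higher and 2 lower, and the median was 3.47. Marco, a scavenger receptor of alveolar and marginal zone macrophages, was listed at 0 in control and 81.6 FPKM in the labelled-knockout library. Spic, a factor of red pulp macrophages, was 0 and 10.4, Siglecf 0 and 10.1, and Cd5l 0.317 and 3.16. The lower genes were Pparg (44.2 and 7.04), Id3 (56.4 and 18.3), Gata6 (3.45 and 0.361) and Car4 (4.19 and 0.773), which stromal, fat or endothelial cells also express. Clec4f, which marks liver Kupffer cells, was at 0 in both libraries.

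Among microglia genes P2ry12 was 0.407 and 22.8 FPKM and P2ry13 0 and 9.48. Sall1 was 0.190 in control and 0 in the labelled-knockout library, and Tmem119 was 5.94 and 4.06. Sparc and Olfml3, which stromal cells express as well, were lower, at 1002 and 263 and at 39.8 and 8.29. Of 7 genes of this list at 1 FPKM or more, 4 were higher by 2-fold or more and 2 lower by as much.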
